A study of Homo sapiens with 6 samples.

Results

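Fibroblast growth factor (FGF) receptors do not act alone at the cell surface, and the genes described here encode 3 layers of that machinery in DCIS.COM cells. They are the receptors FGFR1, FGFR2, FGFR3 and FGFR4, the ligand FGF2 with its carrier FGFBP1, and the heparan sulfate co-receptors SDC1, SDC2, SDC4 and GPC1. The members were chosen by gene symbol, with earlier results of these data known, and all 10 were found among the 58676 genes of the deposited expression table. DCIS.COM, an established line of human breast cells with basal features, serves as a model of ductal carcinoma in situ. Cells of both groups carried a lentiviral PLKO.1 vector, which expressed a non-silencing shRNA in the NS control group and an shRNA against BCL9 in the BCL9 KD group. BCL9 is a transcriptional co-activator that binds β-catenin in the canonical Wnt pathway. Each group had 3 replicates in the labels and in the table, grown in separate flasks in medium with horse serum, whereas the study's methods state a smaller number, and the BCL9 KD samples rest on a single shRNA sequence. A wider spread, from independent transductions or other shRNAs, was not measured, so p-values refer to the spread between flasks.

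FGF2 binds its receptors only weakly by itself. Heparan sulfate chains on syndecans and glypicans hold the ligand and the receptor in one complex, and the sulfation of these chains sets which ligands and receptors are bound. Binding brings receptors together, they phosphorylate each other, and adaptor proteins such as FRS2 carry the signal to the MAPK and PI3K pathways. FGFBP1 releases FGF2 from its store on heparan sulfate in the extracellular matrix. In breast epithelium, FGF receptors are known for roles in branching of the ducts, and FGFR1 is amplified in a subset of breast cancers.

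Expression is given as FPKM, the reads on a gene scaled by the gene's length and by the reads counted in the sample. The test was limma on log2(FPKM + 0.5) for genes with a mean of at least 0.5 FPKM over the 6 samples, with Benjamini-Hochberg adjustment over all 13745 genes tested and an adjusted p under 0.05 as the threshold. A positive log2 fold change means higher expression in BCL9 KD cells. Between 15222452 and 26949026 reads were counted per sample.

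In BCL9 KD cells, FGFBP1 rose while FGFR2 and SDC2 fell. FGFBP1 increased from 40.2 ± 2.31 to 65.3 ± 7.36 FPKM (SD, n = 3 in each group), a ratio of 1.63. SDC2 decreased from 4.69 ± 0.161 to 2.74 ± 0.136 FPKM, a ratio of 0.585, and FGFR2 from 5.17 ± 0.0803 to 3.96 ± 0.126 FPKM, a ratio of 0.766. Of the 9 members with enough expression to be tested, these 3 passed the limma threshold, 1 higher and 2 lower, and 6 did not. Among all genes tested 5.87% passed, 2.96% higher and 2.91% lower in BCL9 KD cells. In bulk RNA, fewer cells with a transcript and less of it per cell cannot be told apart. When NS control replicate 2, BCL9 KD replicate 2 or BCL9 KD replicate 3 was left out, 0 of the 9 members passed, and over all genes 12, 13 and 5 passed. Limma-voom on the read counts recovered from the FPKM called 3 of the 9 members against 10.2% of all genes. After a correction of each sample for the GC content of transcripts, 4 of the 9 passed against 12.3% of all genes, FGF2 being the additional one.

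Promoter windows are shown for FGFBP1 and FGFR2, which changed in opposite directions and whose start-site sequences differ in base composition. Each window runs from 250 bases before to 50 bases after the RefSeq gene start on GRCh38.p14, and both genes lie on the minus strand. The FGFBP1 window is chr4:15938691-15938990 and the FGFR2 window is chr10:121598395-121598694. Capitals mark the match to the TCF/LEF motif CTTTGNT, the core sequence bound by the partner proteins of β-catenin, searched on both strands.
FGFBP1: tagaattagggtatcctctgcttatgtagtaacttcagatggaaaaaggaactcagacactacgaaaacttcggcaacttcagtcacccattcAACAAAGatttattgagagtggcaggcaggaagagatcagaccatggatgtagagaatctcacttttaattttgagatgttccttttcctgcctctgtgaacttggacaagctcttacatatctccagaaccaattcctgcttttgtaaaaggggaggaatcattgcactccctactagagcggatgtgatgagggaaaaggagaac
FGFR2: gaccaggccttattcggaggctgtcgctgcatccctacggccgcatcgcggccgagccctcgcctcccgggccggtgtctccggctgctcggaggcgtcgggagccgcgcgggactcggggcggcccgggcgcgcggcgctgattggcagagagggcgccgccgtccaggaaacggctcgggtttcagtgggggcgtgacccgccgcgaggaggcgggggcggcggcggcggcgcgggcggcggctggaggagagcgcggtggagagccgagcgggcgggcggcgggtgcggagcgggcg
The FGFBP1 window held 42% G and C and 3 CpG dinucleotides, whereas the FGFR2 window held 79.3% and 52, against medians of 58.3% and 14 over 27305 RefSeq windows of the same length. The single capitalized site, AACAAAG, starts 157 bases before the FGFBP1 start and reads as the motif on the opposite strand. CTTTGNT occurred in 15.6% of all windows, so a match in a window is common. A window was at hand for 8 of the 10 members, and FGFBP1 was the only one of these 8 with a TCF/LEF match. The palindromic STAT motif TTCNNNGAA and the AP-1 motif TGANTCA, found in 7.88% and 7.76% of all windows, occurred in none of the 8.

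Knockdown of the target was checked first. BCL9 (chromosome 1, 147541412 to 147626216) was at 6.25, 6.24 and 5.34 FPKM in the NS control flasks, replicates 1 to 3 in order, compared with 2.86, 2.78 and 2.59 FPKM in the BCL9 KD flasks. The groups were well separated, and the log2 fold change (standard error in brackets) was −0.99 (0.0933), with a limma adjusted p of 0.00773. BCL9 did not pass without NS control replicate 2 (limma adjusted p = 0.0636) or without BCL9 KD replicate 2 (0.0589) or 3 (0.0700). Values of replicates 1, 2 and 3 are listed in this order throughout.

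**Figure D1:**
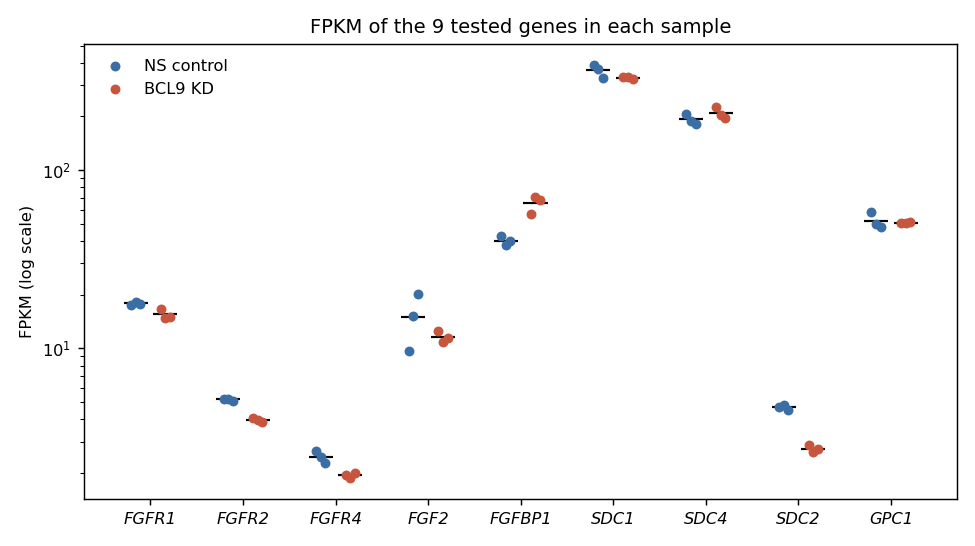
FPKM on a log scale of the 9 tested genes in each sample, with NS control in blue, BCL9 KD in red and a bar at the mean of 3 replicates. FGFBP1 lies higher and FGFR2, FGFR4, FGFR1 and SDC2 lie lower in all BCL9 KD samples, whereas the groups overlap for FGF2, SDC1, SDC4 and GPC1.

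FGF receptors are transmembrane tyrosine kinases, and 3 of the 4 were expressed in these cells. FGFR1 was the most abundant. Its values (ENSG00000077782, chromosome 8, 38411138 to 38468834, GRCh38) were 17.6, 18.3 and 17.8 FPKM in the NS control flasks, compared with 16.6, 14.8 and 15.1 FPKM after BCL9 KD. Each knockdown flask was lower than each control flask, but the difference did not pass the test (log2 fold change −0.20, 95% CI −0.37 to −0.03, limma adjusted p = 0.130). After the GC correction the groups overlapped, because NS control replicate 1 came to 15.6 FPKM and BCL9 KD replicate 1 to 17.4 FPKM, and the log2 fold change was −0.12. A transcript antisense to FGFR1, RP11-350N15.4, shares 4208 bases with it and held 31 to 47 reads per sample, against 2998 to 5064 on FGFR1. The sources used here do not state that the counting used strand.

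FGFR2, whose alternatively spliced IIIb form is the receptor of epithelial cells, had fewer transcripts. The FPKM of FGFR2 (ENSG00000066468, chromosome 10, 121478334 to 121598458) were 5.23, 5.21 and 5.08 in the NS control and 4.09, 3.96 and 3.84 in the BCL9 KD flasks, from 450 to 889 reads. Replicates lay close together and the groups did not overlap. The log2 fold change was −0.35 (95% CI −0.52 to −0.17, limma adjusted p = 0.0456), near the threshold. It no longer passed without the filter on low expression (adjusted p = 0.0850) or without the mean-variance trend (0.0595), nor with the replicate number in the fit, alone (0.128) or after the GC correction (0.106). Of the 6 fits that left out a replicate, the only one in which FGFR2 passed was that without NS control replicate 3 (0.0453), and in the others the adjusted p ran from 0.0519 to 0.205. FPKM per gene do not separate the IIIb and IIIc forms.

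FGFR4, a receptor known mainly for its role in liver with FGF19, was the least abundant of the receptors that were detected well. In the NS control, FGFR4 (ENSG00000160867, chromosome 5, 177086886 to 177098144) stood at 2.64, 2.47 and 2.27 FPKM, and in BCL9 KD cells at 1.96, 1.87 and 2.01 FPKM. The groups did not overlap, and the test was not passed (log2 fold change −0.28, 95% CI −0.50 to −0.05, limma adjusted p = 0.127). FGFR3 (ENSG00000068078, chromosome 4, 1793307 to 1808872) was almost without reads. It had 0, 2 and 0 reads in the NS control and 1, 1 and 4 reads in the BCL9 KD flasks, at most 0.0528 FPKM, and was not tested. The 0 reads in NS control replicates 1 and 3 allow up to 0.0273 and 0.0408 FPKM at a limit of 3 reads, which covers counting error only.

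The summed FPKM of the 4 receptors was 25.4, 25.98 and 25.1 in the NS control and 22.7, 20.6 and 21.0 in the BCL9 KD flasks. All BCL9 KD sums were lower, with a difference of −4.09 FPKM (exact permutation test, two-sided, p = 0.1, which is the minimum for 3 against 3 samples). FGFR1 made up 69.0%, 70.4% and 70.8% of this sum in the NS control and 73.3%, 71.7% and 71.9% in the BCL9 KD flasks. The share of FGFR2 was 20.3 ± 0.260% in the NS control and 18.5 ± 0.618% in BCL9 KD cells (SD, n = 3), lower in 3 of 3 samples (exact permutation test, p = 0.1). The share of FGFR4 was 9.64 ± 0.692% and 9.09 ± 0.480% (SD, n = 3) and overlapped between the groups (exact permutation test, p = 0.5). FGFR1 was thus the main receptor transcript in every sample, and its share was higher by 2.24 percentage points in BCL9 KD cells (exact permutation test, p = 0.1). Over the 15 sums, shares and ratios compared, the lowest Benjamini-Hochberg adjusted p was 0.167 in these exact permutation tests, and none can reach 0.05 with this design.

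**Figure D2:**
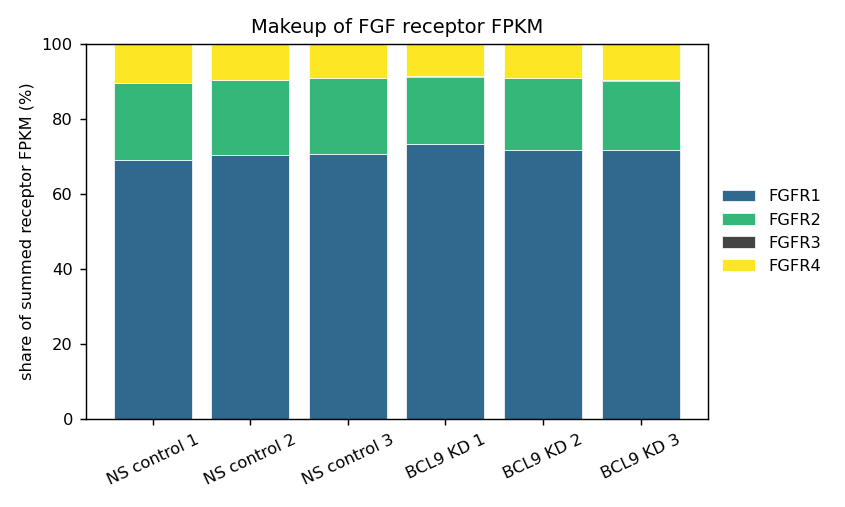
Share of the summed receptor FPKM (%) taken by FGFR1, FGFR2, FGFR3 and FGFR4 in each of the 6 samples. FGFR1 takes between 69.0% and 73.3%, FGFR2 between 18.0% and 20.6%, and FGFR3 is too small to see.

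FGF2, the basic FGF that signals through FGFR1 and the IIIc receptor forms, differed strongly among control flasks. Its FPKM (ENSG00000138685, chromosome 4, 122826708 to 122898236) were 9.71, 15.1 and 20.3 in the NS control flasks, compared with 12.5, 10.9 and 11.4 after BCL9 KD. The lowest and the highest value of all 6 both came from the NS control, and the BCL9 KD values lay between them. The log2 fold change was −0.30 with a 95% CI of −0.86 to 0.26 (limma adjusted p = 0.435), so that neither a lower nor a somewhat higher level could be excluded. The SD of log2 values among NS control samples was 0.515 for FGF2, above that of 91.4% of tested genes, while among BCL9 KD samples it was 0.0985, at the 48.8th percentile. Without NS control replicate 1 the log2 fold change was −0.57 and without NS control replicate 3 it was −0.06, and neither passed (limma adjusted p of 0.0615 and 0.830).

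FGF2 transcripts are rich in A and T, with a GC content of 38.4%. After the GC correction, chosen after seeing the data, FGF2 came to 12.7, 15.8 and 18.5 FPKM in the NS control and 11.3, 10.4 and 10.6 FPKM in the BCL9 KD flasks. The groups then no longer overlapped, the SD of log2 values among NS control samples was 0.261, and the log2 fold change was −0.51 (limma adjusted p = 0.0454). FGF2 passed under no other alternative, and not with the replicate number added to the GC-corrected fit (limma adjusted p = 0.0900). The antisense gene NUDT6 shares 9540 bases with FGF2 and held 70, 87 and 74 reads in the NS control and 115, 157 and 89 in the BCL9 KD flasks, against 1211 to 2089 reads on FGF2.

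FGFBP1 is a secreted carrier protein that frees FGF2 from heparan sulfate. FGFBP1 (ENSG00000137440, chromosome 4, 15935569 to 15938740) was at 42.6, 38.0 and 39.8 FPKM in the NS control and at 57.0, 70.9 and 68.1 FPKM in the BCL9 KD flasks. Every BCL9 KD value exceeded every NS control value. The log2 fold change was 0.69 (95% CI 0.46 to 0.93, limma adjusted p = 0.0195), and it was 0.74 after the GC correction. FGFBP1 no longer passed without the filter on low expression (limma adjusted p = 0.0625), with the replicate number in the fit (0.0861), without NS control replicate 2 (0.101), or without BCL9 KD replicate 2 (0.117) or 3 (0.127). The ratio of FGFBP1 to FGF2 FPKM was 4.39, 2.52 and 1.97 in the NS control and 4.55, 6.52 and 5.97 in the BCL9 KD flasks. All BCL9 KD ratios were higher (exact permutation test, p = 0.1), although NS control replicate 1 came within a small distance of BCL9 KD replicate 1.

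**Figure D3:**
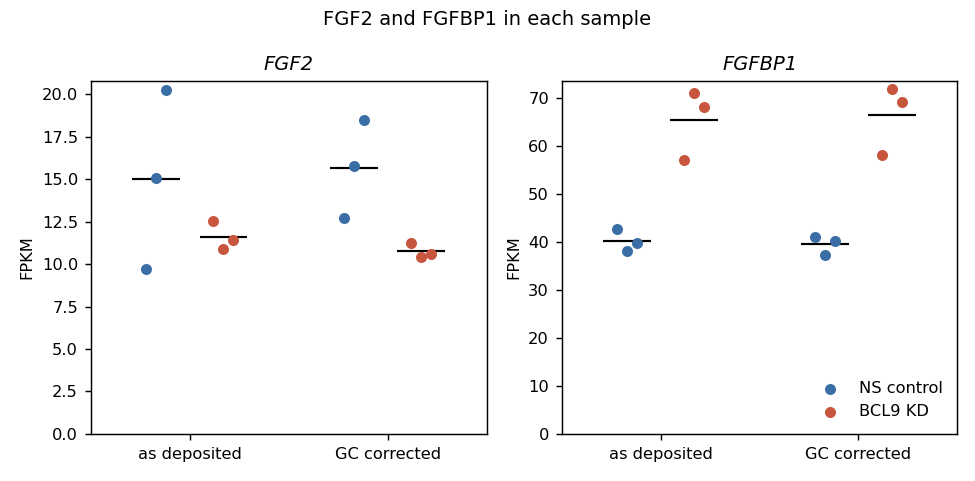
FPKM of FGF2 and FGFBP1 in each sample as deposited and after the correction for transcript GC content, with NS control in blue, BCL9 KD in red and a bar at the mean of 3 replicates. For FGF2 the NS control range narrows from 9.71 to 20.3 as deposited to 12.7 to 18.5 after correction, while for FGFBP1 the groups are separate in both panels.

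The co-receptors were led by SDC1 and SDC4, both transmembrane syndecans of epithelial cells. SDC1 (ENSG00000115884, chromosome 2, 20200797 to 20225433) had 391, 371 and 327 FPKM in the NS control and 332, 332 and 323 FPKM in the BCL9 KD flasks, above 99.5% of tested genes. The third NS control value fell within the range of the BCL9 KD values, and no difference passed the test (log2 fold change −0.14, 95% CI −0.34 to 0.06, limma adjusted p = 0.332). The size of the SDC1 value depended on the samples and the scaling, at −0.08 without NS control replicate 1, −0.21 without NS control replicate 3, −0.06 after the GC correction and −0.24 with quantile normalization, and it passed in none of these. SDC4, a syndecan of focal adhesions, had 207, 190 and 181 FPKM in the NS control and 227, 203 and 196 FPKM in the BCL9 KD flasks (ENSG00000124145, chromosome 20, 45325288 to 45348424). Its values overlapped between the groups, with a log2 fold change of 0.11 (95% CI −0.09 to 0.32, limma adjusted p = 0.417) that turned to −0.07 with quantile normalization and was 0.05 without BCL9 KD replicate 1.

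SDC2, a syndecan more typical of mesenchymal cells, behaved otherwise. The FPKM of SDC2 (ENSG00000169439, chromosome 8, 96493351 to 96611780) were 4.71, 4.84 and 4.52 in the NS control and 2.88, 2.61 and 2.73 in the BCL9 KD flasks, from 194 to 485 reads. Groups were far apart relative to the spread within each, and the log2 fold change was −0.68 (95% CI −0.87 to −0.49, limma adjusted p = 0.0124). It failed with the replicate number in the fit (limma adjusted p = 0.0788), without NS control replicate 2 (0.0826) and without BCL9 KD replicate 2 (0.101) or 3 (0.103). Its log2 fold change ran from −0.71 to −0.65 with a replicate left out and from −0.782 to −0.605 over all alternatives.

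GPC1 is a glypican, anchored to the membrane by a lipid. It was at 57.8, 49.9 and 48.1 FPKM in the NS control and at 50.6, 50.3 and 51.0 FPKM in the BCL9 KD flasks (ENSG00000063660, chromosome 2, 240435671 to 240468078). The BCL9 KD values lay inside the NS control range. The log2 fold change was −0.03 (95% CI −0.23 to 0.17, limma adjusted p = 0.826), an interval that does not reach the value of SDC2. The direction for GPC1 turned to 0.02 after the GC correction.

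Together the 4 co-receptor genes amounted to 612 ± 49.6 FPKM in the NS control and 591 ± 20.03 FPKM in BCL9 KD cells (SD, n = 3; exact permutation test, p = 0.6). The share of SDC1 in this sum was 59.2 ± 0.998% in the NS control and 55.7 ± 1.28% in BCL9 KD cells (SD, n = 3), and that of SDC4 was 31.5 ± 0.774% and 35.3 ± 1.55%. For both, the 3 samples of one group lay outside the range of the other (exact permutation test, p = 0.1). SDC2 made up 0.768% and 0.464% of the sum, so the fall of SDC2 had little weight in the total.

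**Figure D4:**
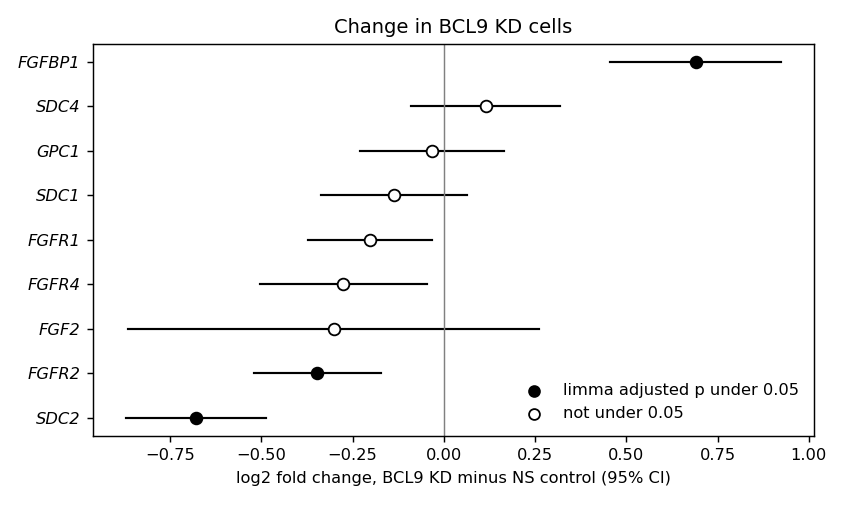
Log2 fold change (BCL9 KD minus NS control) of the 9 tested genes with 95% confidence intervals, filled where the limma adjusted p was under 0.05. FGFBP1 (0.69) stands to the right of 0, SDC2 (−0.68) and FGFR2 (−0.35) to the left, and FGF2 has the widest interval.

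Ranked by FPKM in the NS control, the order was SDC1, SDC4, GPC1, FGFBP1, FGFR1, FGF2, FGFR2, SDC2, FGFR4 and FGFR3. Between neighbours, the ranges of samples overlapped only for FGFR1 and FGF2. In BCL9 KD cells, FGFBP1 (57.0 to 70.9 FPKM) lay above GPC1 (50.3 to 51.0 FPKM) in all samples, the reverse of the NS control order, and no neighbours overlapped. Among the 9 tested genes, 5 had groups without overlap, and this was true of 34.2% of all genes tested. The median log2 fold change of the 9 was −0.20, with 7 negative and 2 positive values, against 0.04 over all genes.

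The wider pathway was described by 106 further genes in 11 lists, 68 of which were expressed enough to be tested. Of these 68, 8 passed (11.8%, against 5.87% of all genes tested), 1 higher and 7 lower in BCL9 KD cells, and their median log2 fold change was −0.04. When NS control replicate 2, BCL9 KD replicate 2 or BCL9 KD replicate 3 was left out, 0 of them passed, and 12, 13 and 5 of all genes did. Without NS control replicate 3 there were 15, and the count over all genes rose from 807 to 1729. Groups did not overlap for 32 of the 68, against 34.2% of all genes tested.

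Few other ligands were transcribed. Of 17 other FGF ligand genes, 8 had no read in any sample and the only one tested was FGF1, a ligand of all FGF receptors. FGF1 was at 1.33, 1.66 and 1.68 FPKM in the NS control and at 1.32, 1.47 and 1.82 FPKM in the BCL9 KD flasks, with overlapping groups (limma adjusted p = 0.948). None of the 4 FGF homologous factors, which stay inside the cell, was tested, and the most abundant, FGF13, reached 0.225 FPKM. Of 8 other co-receptors and binding proteins, 3 were tested and 0 passed. FGFRL1, a receptor without a kinase domain, was at 7.33 ± 0.770 and 7.13 ± 0.332 FPKM (SD, n = 3). FLRT3, a membrane protein that binds FGF receptors and was chosen after its values were seen, had 2.99, 4.98 and 6.42 FPKM in the NS control and 9.93, 9.25 and 9.38 FPKM in the BCL9 KD flasks. Those groups did not overlap, but the spread in the NS control was wide (log2 fold change 0.98, limma adjusted p = 0.0546). FLRT3 passed with limma under 4 of 12 alternatives, the GC correction among them (adjusted p = 0.0203), and without NS control replicate 1 (0.0324) or 3 (0.0265).

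Among 8 tested genes of other heparan sulfate proteoglycans, 2 fell and none rose, against 2.91% and 2.96% of all genes tested. TGFBR3, the co-receptor betaglycan, which also binds FGF2, was at 1.502, 2.22 and 2.39 FPKM in the NS control and 0.747, 0.844 and 0.829 FPKM in the BCL9 KD flasks (log2 fold change −0.94, limma adjusted p = 0.0319). GPC4, a glypican, was at 5.39, 4.93 and 4.40 FPKM and at 2.84, 2.93 and 2.95 FPKM (log2 fold change −0.66, limma adjusted p = 0.0191). In both genes all BCL9 KD values were lower. SDC3, the remaining syndecan and chosen after its values were seen, was at 6.44 ± 0.560 and 4.41 ± 0.574 FPKM (SD, n = 3; log2 fold change −0.50, limma adjusted p = 0.0509), just outside the threshold. COL18A1, the proteoglycan collagen XVIII, also chosen after its values were seen, lay in the other direction, at 7.89 ± 0.704 and 10.4 ± 0.617 FPKM (SD, n = 3; log2 fold change 0.38, limma adjusted p = 0.0566), without overlap. Under the 12 alternatives TGFBR3 passed in 9, GPC4 in 9, SDC3 in 5 and COL18A1 in 3. With a replicate left out, TGFBR3 passed in 2 of 6 fits, GPC4 in 3, SDC3 in 2 and COL18A1 in 0. The median log2 fold change of this list was −0.31.

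Enzymes that build the heparan sulfate backbone showed 0 calls among 11 tested. The most abundant, the xylose kinase FAM20B, was at 35.2 ± 2.22 and 34.6 ± 0.834 FPKM (SD, n = 3; log2 fold change −0.02, limma adjusted p = 0.868). The enzymes that modify the chain are sulfotransferases and the epimerase GLCE. Of 9 tested genes of this list, 3 fell and 0 rose, against 2.91% and 2.96% of all genes tested. The median log2 fold change was −0.27 for this list and −0.03 for backbone synthesis, a difference that was not tested. NDST1, which starts sulfation of the chain by replacing acetyl with sulfate groups, had 41.8, 39.2 and 33.2 FPKM in the NS control and 24.95, 22.9 and 21.7 FPKM in the BCL9 KD flasks. Its lowest NS control value was well above its highest BCL9 KD value (log2 fold change −0.70, limma adjusted p = 0.0206). The 3-O-sulfotransferases HS3ST3A1 (2.54 ± 0.198 to 1.46 ± 0.224 FPKM, limma adjusted p = 0.0374) and HS3ST3B1 (8.99 ± 0.568 to 6.65 ± 0.361 FPKM, adjusted p = 0.0404) also fell. These paralogs share much of their coding sequence, and how reads matching both were counted is not given in the sources used here. Under the 12 alternatives NDST1 passed in 10, HS3ST3A1 in 9 and HS3ST3B1 in 8. With a replicate left out, NDST1 passed in 3 of 6 fits, HS3ST3A1 in 1 and HS3ST3B1 in 1. Of the other tested genes of this list, 4 had positive log2 fold changes, up to 0.49, and did not pass. Among the 3 tested genes that trim or cut heparan sulfate, 0 passed, and SULF2, an extracellular 6-O-sulfatase, was at 18.5 ± 0.480 and 19.4 ± 0.509 FPKM (SD, n = 3; limma adjusted p = 0.514).

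Inside the cell, 0 of 12 adaptors and enzymes next to the receptor passed. SHC1, the most abundant, was at 110.5 ± 7.02 and 103 ± 0.991 FPKM (SD, n = 3; log2 fold change −0.10, limma adjusted p = 0.387). The SHC1 value was −0.05 without NS control replicate 1, −0.01 after the GC correction and −0.20 with quantile normalization. Of 12 genes that respond to FGF or feed back on it, 2 fell and 0 rose, against 2.91% and 2.96% of all genes tested. The median log2 fold change of these 12 was −0.07. IL17RD, a membrane inhibitor of FGF signaling also known as SEF, was at 72.5, 78.3 and 71.7 FPKM in the NS control and 47.9, 40.6 and 41.2 FPKM in the BCL9 KD flasks. The separation was wide, at −0.77 on the log2 scale (limma adjusted p = 0.0109). CCND1, the cell cycle gene encoding cyclin D1, was at 96.5, 96.3 and 81.3 FPKM and at 67.0, 61.6 and 60.0 FPKM (log2 fold change −0.53, limma adjusted p = 0.0300). CCND1 is also a known target of the Wnt pathway. DUSP6, a phosphatase of ERK induced by FGF and chosen after its values were seen, lay in the other direction, at 32.9 ± 0.766 and 41.0 ± 2.40 FPKM (SD, n = 3; log2 fold change 0.31, limma adjusted p = 0.0501), at the edge of the threshold. DUSP6 passed with limma under 6 of 12 alternatives, including the GC correction alone (adjusted p = 0.0229) and with the replicate number in the fit (0.0493). In that last fit IL17RD (0.0534) and CCND1 (0.0586) did not pass, whereas over the 12 alternatives IL17RD passed in 10 and CCND1 in 8.

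Of 5 tested partners of the syndecan tails, SDCBP rose and the others did not pass, while 2.96% of all genes tested rose. SDCBP, which encodes the adaptor syntenin-1, was at 5.40, 6.73 and 7.63 FPKM in the NS control and 9.38, 9.85 and 10.5 FPKM in the BCL9 KD flasks (log2 fold change 0.57, limma adjusted p = 0.0495). It lies at the edge of the threshold, at an adjusted p of 0.0504 with 0.1 FPKM added in place of 0.5. None of the 4 regulators that select between receptor splice forms passed, and all 4 log2 fold changes were negative. ESRP1 and ESRP2, which favour the epithelial IIIb form and were picked with their values in view, were at 39.0 ± 2.47 and 37.7 ± 1.04 FPKM (limma adjusted p = 0.703) and at 13.3 ± 0.213 and 10.6 ± 0.543 FPKM (adjusted p = 0.0501, SD, n = 3). ESRP2 passed under 4 of 12 alternatives. PTBP1, the most abundant of them, was at 90.5 ± 6.33 and 80.6 ± 3.95 FPKM (SD, n = 3; limma adjusted p = 0.220).

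**Figure D5:**
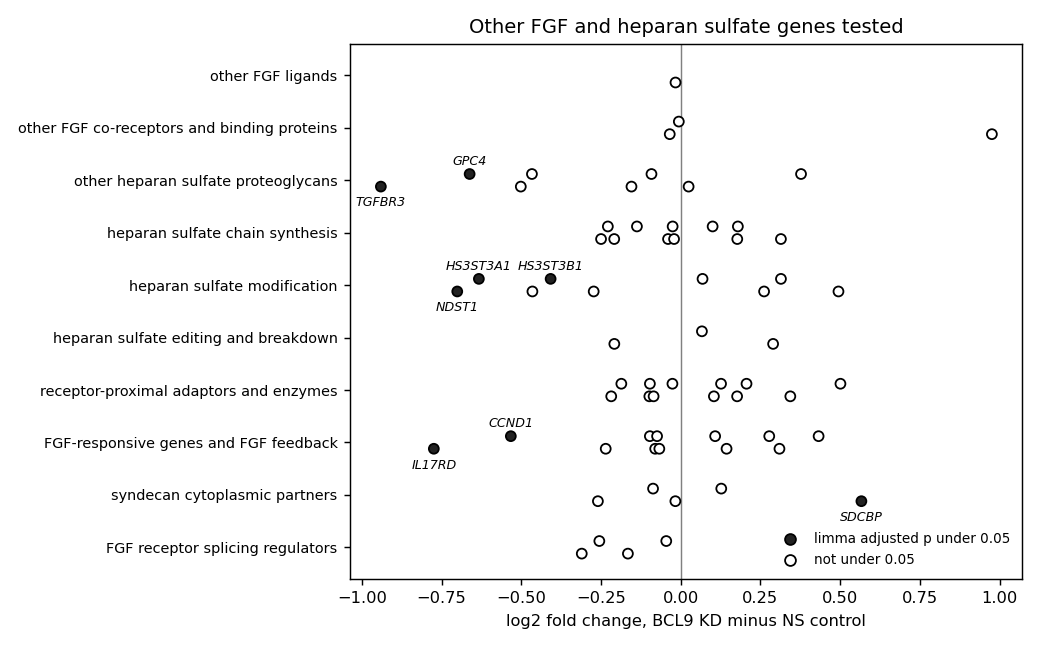
Log2 fold change (BCL9 KD minus NS control) of the 68 tested genes of the wider pathway by list, one point per gene, filled and named where the limma adjusted p was under 0.05. The 7 filled points to the left of 0 are 2 proteoglycans, 3 sulfotransferases and 2 genes of the FGF response, and the single filled point to the right is SDCBP.

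The identity of the cells was checked with marker genes. Of 6 basal markers 0 passed, and KRT5 was at 398 ± 25.9 and 413 ± 23.8 FPKM (SD, n = 3) and KRT17 at 570 ± 68.6 and 561 ± 4.66 FPKM. TP63 lay higher in all BCL9 KD samples (log2 fold change 0.27, limma adjusted p = 0.180). EGFR lay lower in all of them (log2 fold change −0.26, limma adjusted p = 0.129). The 6 basal markers summed to 1037 to 1209 FPKM in the NS control and 1073 to 1126 FPKM in BCL9 KD cells. The 5 pan-epithelial markers summed to 578 to 689 and 531 to 561 FPKM, and 0 of them passed. The 5 luminal markers summed to 11.3 to 13.3 and 13.2 to 14.4 FPKM, ESR1 was at or below 0.0980 FPKM and PGR had no read, while AGR2 rose from 0.775 ± 0.172 to 2.83 ± 0.0262 FPKM (log2 fold change 1.39, limma adjusted p = 0.00773). The other tested luminal markers, FOXA1 (log2 fold change −0.04) and GATA3 (−0.04), had overlapping groups and did not pass. The 5 endothelial markers summed to 1.90 to 2.45 and 3.23 to 4.08 FPKM. Of these, PECAM1 rose from 2.10 ± 0.328 to 3.45 ± 0.412 FPKM (limma adjusted p = 0.0477). CDH5 and VWF were at 0.0534 FPKM or less in every sample, and KDR at 0.163 FPKM or less. TEK, with at most 9 reads, was lower in all BCL9 KD samples. The 7 fibroblast markers summed to 0.702 to 0.732 FPKM in the NS control and 0.768 to 0.905 FPKM in BCL9 KD cells. Of these COL1A1 was tested, at 0.517 ± 0.0294 and 0.594 ± 0.0803 FPKM (SD, n = 3; limma adjusted p = 0.693), and COL3A1 had no read. The 5 leukocyte markers summed to at most 0.0762 FPKM. The part of these markers in the differences above was not tested.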

How the data were processed

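RNA sequencing libraries of 3 NS control and 3 BCL9 KD flasks of DCIS.COM cells were grouped by their labels, and no sample was left out. The authors aligned reads with STAR and counted them per gene with HTSeq (0.6.1 in the submitters' processing notes, which also name CASAVA and hg38). They deposited FPKM for 58676 genes, with a further column of gene length in bases. The authors tested counts with DESeq2, whereas FPKM and the read counts recovered from them were used here. All 10 member positions overlapped those of RefSeq genes on GRCh38.p14.

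FPKM times gene length was divided by a step fitted for each sample. This gave whole reads for 100% of values (tolerance 0.1), from which depth was recovered: 22712638, 20232105 and 15222452 reads in NS control and 17674889, 26949026 and 15665714 in BCL9 KD samples. Reads are not independent molecules, so counting limits cover counting error only. Replicates of a group correlated at 0.964 to 0.987 (Pearson r of log2 values).

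Limma 3.58.1 (R 4.3.3) with an empirical Bayes trend was fitted to log2(FPKM + 0.5) of 13745 genes with a mean of at least 0.5 FPKM, two-sided, with Benjamini-Hochberg adjustment. Because of the added 0.5 FPKM, log2 fold changes of weakly expressed genes are understated, whereas the ratios of mean FPKM have nothing added. Sums and shares were compared by two-sided exact permutation tests. Tables and plots were made with matplotlib 3.10.9, pandas 2.3.3, numpy 2.4.6 and scipy 1.17.1 under Python 3.11, and the fit was tested on simulated data. Members, lists and tests were chosen with earlier results of these data known. The genes named were all members, BCL9, marker genes, and in each pathway list up to 4 genes past the threshold by absolute log2 fold change, or the most abundant one where none passed. FLRT3, SDC3, COL18A1, DUSP6, ESRP1 and ESRP2 fall outside this rule and were picked with their values in view.

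Alternatives were 1 or 0.1 FPKM added, a mean of at least 1 FPKM, no filter, quantile normalization, median-of-ratios scaling, no trend, robust fitting, the replicate block, limma-voom on recovered reads and leaving out each replicate. A GC correction (loess, span 0.3, per sample, on transcript GC content from a GRCh37 annotation, known for 98.8% of tested genes), alone and with the replicate block, was added after seeing the data.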

Additional observations from a re-analysis of the deposited data

How the results depend on the processing

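The count of members past the threshold was 3. It was 1 without the filter on low expression, 0 with the replicate block (3 at an unadjusted limma p under 0.05) and 0 to 3 with each replicate left out, and 2 to 4 under the other alternatives. Outside the fits with a replicate left out, SDC2 passed under 11, FGFBP1 under 10 and FGFR2 under 8 of 12 alternatives. Of the 68 listed genes tested 8 passed. The count was 13 with a mean of at least 1 FPKM, 1 without the filter, 13 with quantile normalization, 5 without the trend, 16 with voom, 15 with the GC correction, 3 with both the GC correction and the block, and 0 with the replicate block alone (27 at an unadjusted p), and it ran from 0 to 15 with a replicate left out. Over all genes the count of 807 became 142 without the filter, 332 without the trend, 1403 with voom, 1693 with the GC correction, 382 with both the GC correction and the block, 0 with the replicate block (3235 at an unadjusted p) and 5 to 1729 with a replicate left out. Without the filter more genes are tested and adjusted for. For the other changes of a count the cause was not tested.

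The replicate block added the replicate number of the labels to the fit. Taken as deviations from their group mean, samples of equal number correlated at −0.147, −0.0884 and −0.00287, against a mean of 0.0387 for unequal numbers. With 3 samples per group, these values cannot show whether samples of equal number shared a preparation. With the block BCL9, at an unchanged −0.99 by construction, had a limma adjusted p of 0.0656, and with a replicate left out its log2 fold change ran from −1.06 to −0.95. FGFR1, FGFR2, FGFR4, FGF2, FGFBP1, SDC1 and SDC2 kept their direction under the alternatives that can move a fold change, namely another added value, scaling, voom, the GC correction and each replicate left out. The filters, the trend, robust fitting and the block leave it as it is by construction. Changes of direction occurred in genes that did not pass. SDC4 came to −0.0657 with quantile normalization. With the GC correction, alone or with the block, GPC1 came to 0.0192, FGF1 to 0.031, FGFRL1 to 0.0076 and FAM20B to 0.018. With a replicate left out, GPC1 ran from −0.085 to 0.047, FGF1 from −0.11 to 0.0598, FGFRL1 from −0.11 to 0.037, FAM20B from −0.061 to 0.027 and ESRP1 from −0.082 to 0.0042. Depth limits FGFR3, with 4 reads at most.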
